A study of Cymbopogon flexuosus and Cymbopogon winterianus with 4 samples.

Results

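The subject is a set of 141 leaf contigs, assembled transcript features counted in the lemongrass contig table, whose level differed over 2-fold between the 2 libraries of citronella. They were chosen from measured values among 25576 lemongrass contigs, in a series that also holds a citronella contig table and 67826 contigs in all. A contig was taken when its mean count in the citronella libraries was 50 or more, when its (CPM + 1) ratio of citronella library 1 over library 2 was above 2 or below 0.5, and when the mean CPM of the species lay less than 4-fold apart. CPM (the usual depth-scaled level) is a contig's count relative to its library's total. The first and the third condition were met by 14897 contigs, of which 0.946% also passed the ratio. The other 14756 are called here the steady contigs. The citronella ratio and the species means chose the members, so the citronella gap is described without a test, and the species test across all contigs is given for the members as a description only. The ratio of lemongrass library 1 over library 2 was not itself a condition. Both lemongrass libraries entered the species condition through their mean, so a high level in 1 of them could let a contig in.

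The libraries were made from total RNA of leaves of field-grown plants kept under normal conditions, 2 of citronella (Cymbopogon winterianus) and 2 of lemongrass (Cymbopogon flexuosus). No treatment or mutation separates the groups, which differ by species. The labels do not name the plants behind each library, so the spread between libraries may be technical. Citronella library 1 held 9485822 counts on these contigs and library 2 held 4875674, while lemongrass library 1 held 5787640 and library 2 held 6636226.

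Both grasses are grown for leaf oils of volatile monoterpenes. Lemongrass oil is known for citral, and citronella oil for citronellal, citronellol and geraniol. Transcript levels in leaves are compared between species against the spread among libraries of 1 species, and contigs with a wide spread make that comparison depend on the library. The files pair no contig with a gene name, so the functions of the members are not given and contigs are named by ID.

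The members formed a class of 66 contigs higher in citronella library 1 and a class of 75 higher in library 2. With TMM-scaled CPM the rule gave 48 and 92 contigs, of which 116 in all belonged to the 141. The classes differed in level and in the size of the gap. Contigs higher in library 1 had a median of 8.52 CPM in citronella, against 10.8 CPM in lemongrass. Contigs higher in library 2 had a median of 18.3 CPM in citronella, against 7.28 CPM in lemongrass. The (CPM + 1) ratio of the higher over the lower citronella library reached 2.69 in the first class and 5.56 in the second. It exceeded 3 in 13 contigs of the second class and in 0 of the first. Of the 12 members with a mean citronella count of 1000 or more, 11 were higher in library 2.

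**Figure D1:**
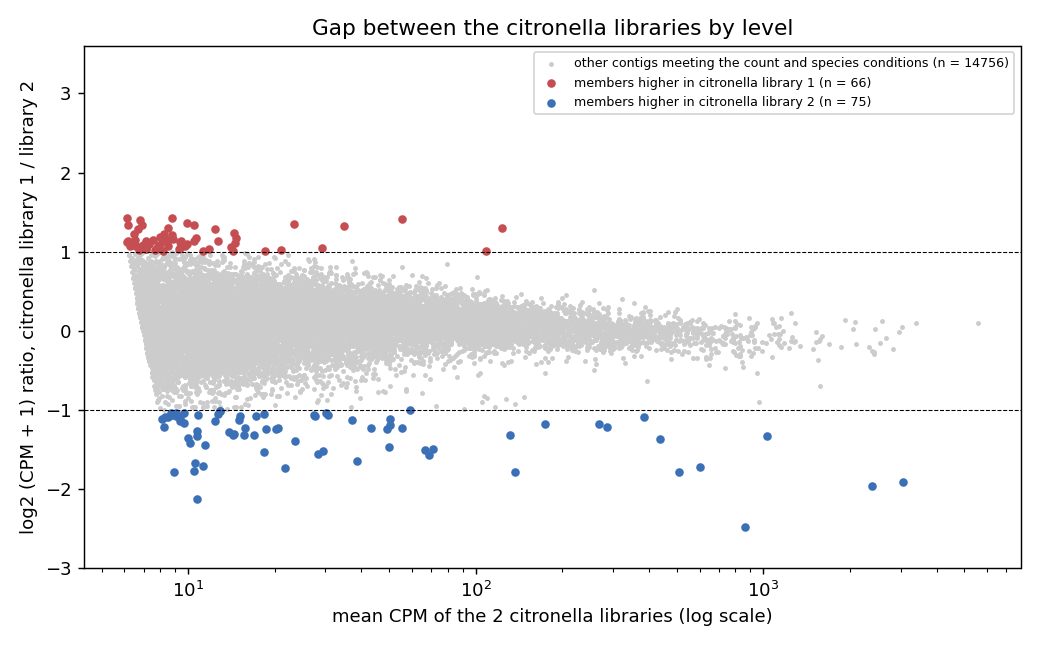
Log2 (CPM + 1) ratio of citronella library 1 over library 2 against the mean CPM of both citronella libraries (log scale), with 1 point per contig; red points are the 66 members higher in library 1, blue points the 75 higher in library 2, grey points the 14756 steady contigs, and dashed lines mark the 2-fold limits. The red points reach 124 CPM, while the blue points reach 3067 CPM and hold the widest gaps.

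At the limits of the rule, the member nearest to the 2-fold limit had a ratio of 2.004 in either direction, and the nearest contigs outside stood at 1.996 towards library 1 and 1.992 towards library 2. The lowest mean count of a member was at the limit itself, and the next contig outside had 49.5. The widest species gap within the list was 3.99-fold, and the narrowest outside was 4.12-fold. The species condition cut the classes unequally. It left out 61 contigs that met the other conditions, of which 58 were higher in citronella library 2, and all of those 58 had the higher mean in citronella. The count condition uses raw counts, to which the deeper library 1 contributes more. Without the count condition the rule gave 308 contigs higher in library 1 and 183 higher in library 2. The part of depth in these numbers was not tested.

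The widest gap was that of g.contigcf2221. It had 2484 and 7117 counts in citronella libraries 1 and 2, or 262 and 1460 CPM, against 459 and 341 CPM in lemongrass libraries 1 and 2. Citronella library 2 alone stood high, and library 1 lay below both lemongrass libraries. Citronella library 2 was 5.57-fold above library 1, with a 95% exact interval of 5.32 to 5.84 that covers counting error only. The next was a rare contig, g.contigcf21905, with 32 and 88 counts in citronella, or 3.37 and 18.0 CPM, against 4.49 and 2.11 CPM in lemongrass. Here too only citronella library 2 stood apart, by 5.35-fold over library 1 (95% exact interval 3.53 to 8.29).

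In the other direction the gaps were narrower and the contigs were rare. g.contigcf11447 had 126 and 21 counts in citronella, or 13.3 and 4.31 CPM, against 8.47 and 8.14 CPM in lemongrass. g.contigcf11475 had 89 and 14 counts in citronella, or 9.38 and 2.87 CPM, against 6.22 and 4.82 CPM in lemongrass. In both contigs the lemongrass libraries lay between the citronella libraries. The ratios of citronella library 1 over library 2 were 3.08 (95% exact interval 1.93 to 5.16) and 3.27 (1.85 to 6.22). Such intervals make no allowance for picking the contigs by their gaps.

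The most abundant members belonged to the class higher in citronella library 2. g.contigcf2961 stood at 1292 and 4842 CPM in citronella, against 965 and 641 CPM in lemongrass, so both citronella libraries were above both lemongrass libraries. g.contigcf117 stood at 975 and 3807 CPM in citronella, against 1246 and 1568 CPM in lemongrass, so citronella library 1 was the lowest of the 4 and library 2 the highest. Summed over the class of 75, the level was 5462 and 17829 CPM in citronella, against 5665 and 4892 CPM in lemongrass. These 2 contigs gave 48.5% of that sum in citronella library 2, and without them it was 3195 and 9180 CPM in citronella, against 3454 and 2682 CPM in lemongrass. The class of 66 summed to 1300 and 544 CPM in citronella, against 1134 and 1249 CPM in lemongrass. In both classes the sum of citronella library 2 lay outside the range of the other 3 libraries, above it in the class of 75 and below it in the class of 66. Citronella library 1 was also outside that of the others in the class of 66, at 1300 CPM against at most 1249. The classes were sorted by the sign of the citronella gap, so the order of the citronella sums follows from the choice.

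The position of each library was then read contig by contig against the lemongrass mean, on the log2 (CPM + 1) scale. In the class of 75 the median was 0.44 for citronella library 1 and 1.70 for library 2. In the class of 66 it was 0.21 for library 1 and -0.95 for library 2. The medians of the steady contigs were 0.19 and 0.07. Library 1 was thus the nearer to lemongrass in 71 of 75 and in 46 of 66 members, and in 58.5% of the steady contigs. The 4-fold limit on the species means bounds these distances. In the class of 75, library 1 was the lower citronella library by choice, and most of its contigs had the higher mean in citronella. The large share in that class thus mostly follows from how it was sorted.

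**Figure D2:**
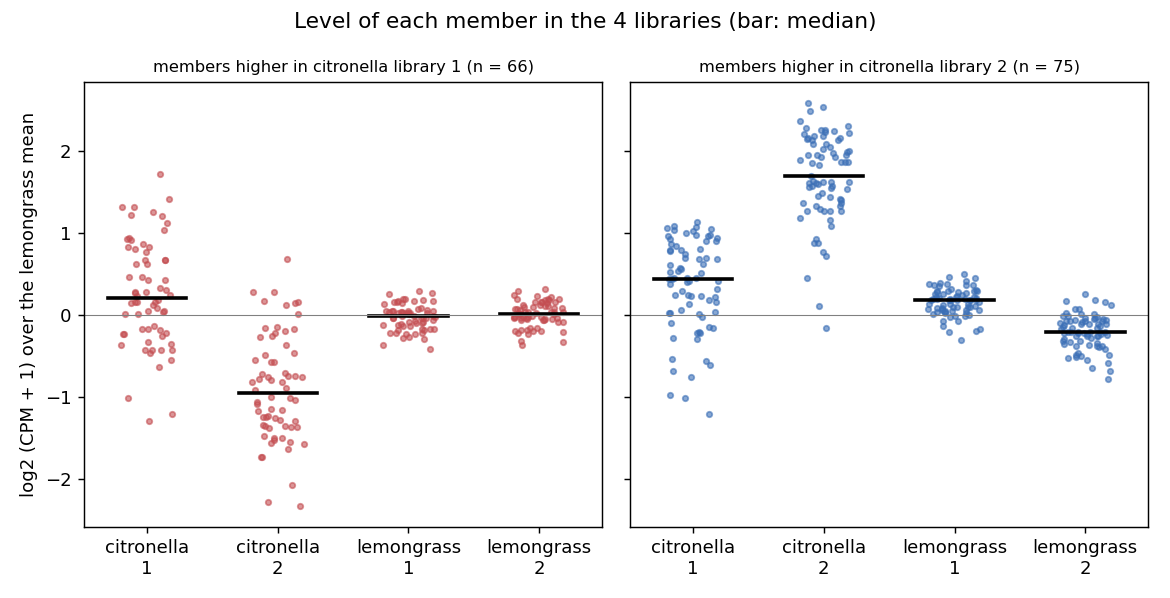
Log2 of each member's (CPM + 1) over that of its lemongrass mean in citronella libraries 1 and 2 and lemongrass libraries 1 and 2, for the 66 members higher in citronella library 1 (left) and the 75 higher in library 2 (right); points are contigs and bars are medians. Citronella library 2 stands apart in both panels, with medians of -0.95 on the left and 1.70 on the right, and in the right panel lemongrass library 1 lies above library 2.

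The lemongrass libraries show whether the same contigs also varied in the other species. Few did so at the size used in citronella. The lemongrass ratio passed 2-fold in 4 of 141 members (2.84%), against 0.413% of the steady contigs. All 4 had mean citronella counts below 100 and a mean lemongrass count below 50. In all 4 the citronella mean was over 4-fold above lemongrass library 2, so they met the species condition only through lemongrass library 1. Their number is thus not independent of the choice. At 1.5-fold, a size chosen after seeing the data, the number was 24 of 141 (17.0%), against 4.77% of the steady contigs. The median absolute log2 ratio was 0.32 in the members and 0.14 in the steady contigs. Members were also rarer in lemongrass, with a median mean count of 59.0 against 137. At a mean lemongrass count of 200 or more, 3 of 15 contigs higher in citronella library 2 were over 1.5-fold apart, against 0.0512% of the steady contigs. At 50 to 200 counts 4 of 20 were, against 3.85%. Some of those 3 also met the species condition only through lemongrass library 1. Among them was g.contigcf2961, with a citronella mean of 3067 CPM against 641 CPM in lemongrass library 2. The 1.5-fold shares were not counted again without such contigs. Of the contigs higher in citronella library 1, 3 of 21 were over 1.5-fold apart below 50 counts (14.3%), against 15.3%, and 1 of 38 at 50 to 200 counts (2.63%), against the same 3.85%.

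The class of 75 leaned one way between the lemongrass libraries, while the class of 66 as a whole was near balance. The counts by direction were chosen after seeing the data. Of the contigs higher in citronella library 2, 65 of 75 (86.7%) were higher in lemongrass library 1 than in library 2, against 51.0% of the steady contigs. Their median log2 ratio of lemongrass library 1 over library 2 was 0.39, with quartiles of 0.13 and 0.61. Of the contigs higher in citronella library 1, 31 of 66 (47.0%) were higher in lemongrass library 1, with a median of -0.02. Among its 15 contigs with a mean citronella count of 100 or more, 4 were (26.7%). With no count minimum that class held 308 contigs, of which 57.1% were higher in lemongrass library 1. The median of the steady contigs was 0.005. At 1.5-fold or more, 20 of the 75 were higher in lemongrass library 1 (26.7%), against 3.29% of the steady contigs, and 0 were higher in library 2, against 1.48%. In each species the class of 75 was thus mostly higher in the library with the smaller total, which is library 2 in citronella and library 1 in lemongrass. The part of depth in this was not tested.

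The lean was seen at each level of abundance, counting also the contigs let in only through lemongrass library 1. At a mean lemongrass count below 50, 33 of 40 contigs of the class of 75 were higher in lemongrass library 1 (82.5%), against 59.2% of the steady contigs. At 50 to 200 counts the numbers were 18 of 20 (90.0%), against 50.4%. At 200 or more they were 14 of 15 (93.3%), with a median log2 ratio of 0.42, against 47.2% and a median of -0.007 in the steady contigs. With TMM-scaled CPM, 63 of the same 75 were higher in lemongrass library 1. The class chosen with that scaling gave 75 of 92 (81.5%), against 43.0% of the contigs that then met the count and species conditions but not the ratio. Contigs share the same 4 libraries and are not independent, so these shares carry no p-value.

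The lean was also graded over the steady contigs, and was wider the further citronella library 2 stood above library 1. Where the log2 ratio of citronella library 1 over library 2 lay between -1 and -0.5, 339 of 527 contigs (64.3%) were higher in lemongrass library 1, with a median log2 ratio of 0.12. Between -0.5 and 0 the share was 55.5%, and between 0 and 0.5 it was 47.9%. It was 47.8% between 0.5 and 1. Level in citronella relative to lemongrass moved with this as well. Of the steady contigs over 2-fold higher in citronella by their means, 58.9% were higher in lemongrass library 1. Among the 75 members, the share was 46 of 51 (90.2%) where the citronella mean was over 2-fold higher, and 19 of 24 (79.2%) in the rest. Of the 58 contigs higher in citronella library 2 that only the species condition kept out, 53 (91.4%) were higher in lemongrass library 1.

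**Figure D3:**
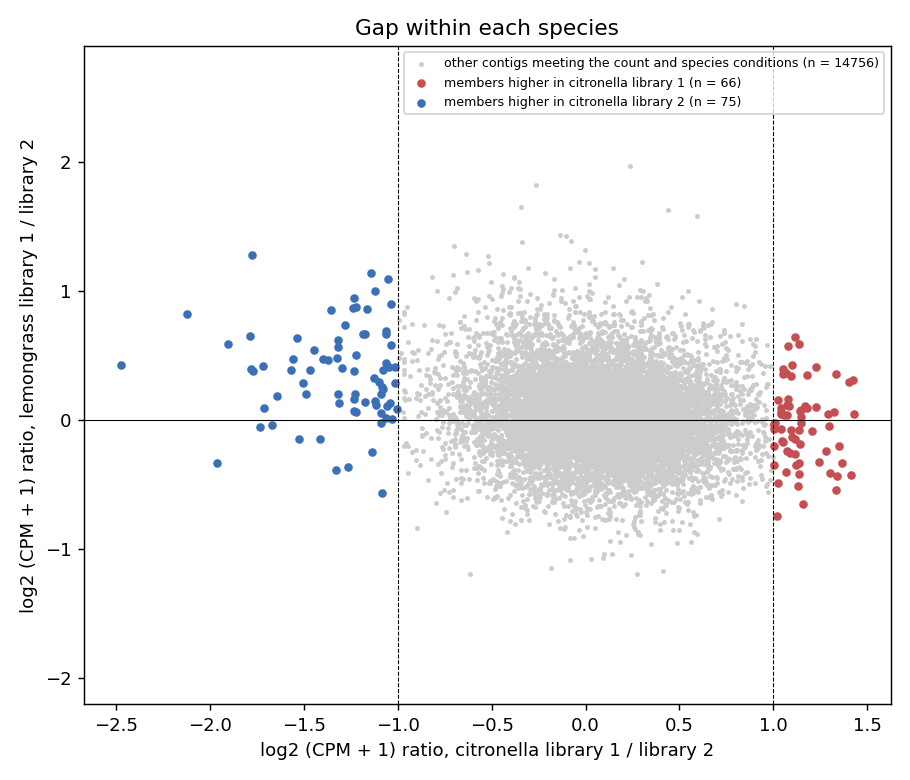
Log2 (CPM + 1) ratio of lemongrass library 1 over library 2 against that of citronella library 1 over library 2, with 1 point per contig and dashed lines at the 2-fold limits of the rule. Of the 75 blue points on the left, 65 lie above 0 on the vertical axis, while the 66 red points on the right spread about it with 31 above.

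The members with the highest and the lowest ratio of lemongrass library 1 over library 2 were g.contigcf17665 and g.contigcf15317. The rare g.contigcf17665 had 33 and 70 counts in citronella, or 3.48 and 14.4 CPM, against 21 and 6 counts in lemongrass, or 3.63 and 0.904 CPM. Lemongrass library 1 was 4.01-fold above library 2, with a wide 95% exact interval of 1.57 to 12.2. g.contigcf15317 stood at 28.5 and 13.5 CPM in citronella, against 11.1 and 19.1 CPM in lemongrass, where library 1 was 0.578-fold library 2 (95% exact interval 0.421 to 0.786). For the abundant g.contigcf2961, lemongrass library 1 was 1.505-fold above library 2 (95% exact interval 1.45 to 1.57). g.contigcf117 went the other way, at 0.794-fold (0.771 to 0.819), and was among the 10 contigs of its class that did.

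The species comparison, citronella over lemongrass, was fitted over 25107 contigs, and all 141 members were tested in it. The rule used this contrast, so the calls describe the list and support nothing about it. With edgeR (quasi-likelihood, p-values adjusted by Benjamini-Hochberg), 82 of 141 members passed an adjusted p of 0.05 (58.2%), against 54.8% of all contigs. DESeq2 called 34 of them, against 39.8% of all contigs with an adjusted p. The classes differed in direction. In the class of 75, 61 were called higher in citronella by edgeR, against 27.2% of all contigs, and the median log2 fold change was 1.33. In the class of 66, 7 (10.6%) were called higher in citronella and 14 (21.2%) lower, against 27.2% and 27.6% of all contigs. The median log2 fold change of this class was -0.20. Of the steady contigs, which met the same count and species conditions, 36.3% were called higher and 20.5% lower. The share called lower in the class of 66 was thus near that of the steady contigs. The median over all contigs tested was -0.005.

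The libraries of the species often overlapped in the members. Both citronella libraries lay above both lemongrass libraries in 50 of the 75 and 4 of the 66. This was so in 37.3% of all contigs tested and 47.0% of the steady contigs. Both lay below in 1 of the 75 and 19 of the 66 (28.8%), against 40.1% of all contigs tested and 31.7% of the steady contigs. In 25 of the 66 and 11 of the 75, both lemongrass libraries lay between the citronella libraries, which was so in 6.36% of the steady contigs. The rule asked for a wide citronella gap and bounded the species means. A larger share than in the steady contigs thus follows from the choice of members.

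Among called members, g.contigcf2961 had the largest log2 fold change, 1.98 ± 0.34 (SE, edgeR adjusted p = 7.2e-05). DESeq2 did not call it, at an adjusted p of 0.0656, and its log2 fold change was 0.69 without citronella library 2. The lowest was that of g.contigcf8759, which stood at 16.2 and 7.38 CPM in citronella, against 42.2 and 40.2 CPM in lemongrass. Here edgeR gave a log2 fold change of -1.71 ± 0.23 (SE, adjusted p = 4.0e-06), and the contig was called by both tools and with any 1 library left out. g.contigcf2221 and g.contigcf117 were called higher in citronella by edgeR, at adjusted p of 0.0224 and 0.0466, but DESeq2 called neither, at 0.424 and 0.492, and without citronella library 2 their log2 fold changes were -0.61 and -0.53.

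For many members the direction of the species difference depended on which citronella library was used. The sign of the log2 fold change differed between the fit without citronella library 1 and the fit without library 2 in 37 of the 66 and in 16 of the 75, against 11.3% of the steady contigs. A gap between the citronella libraries was a condition of the rule, so a larger share than in the steady contigs follows from the choice of members. In the class of 75 the median log2 fold change was 1.99 without citronella library 1 and 0.53 without library 2. In the class of 66 it was -0.96 and 0.22.

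**Figure D4:**
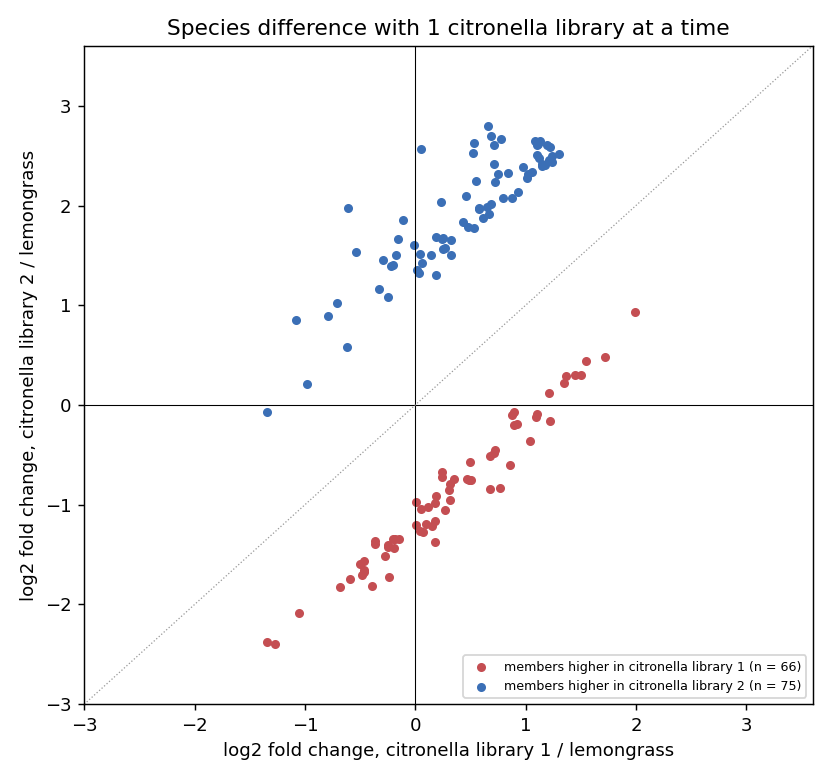
Log2 fold change over lemongrass with citronella library 2 alone (vertical) against that with citronella library 1 alone (horizontal), with 1 point per member; red points are the 66 higher in library 1 and blue points the 75 higher in library 2, and the dotted line marks equal values. The 37 red points in the lower right quadrant and the 16 blue points in the upper left quadrant have directions that depend on the library.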

How the data were processed

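Raw counts per contig were deposited by the authors, as whole numbers with a different total in each column. HISAT2, HTSeq, SAMtools, edgeR, Trimmomatic 0.32 and FastQC 0.11.2 appear in the submitters' processing notes without stated roles. Neither the reference nor the handling of reads that match several contigs is given in the sources used here, so counts of near-identical contigs are uncertain. The citronella contig table was not used beyond its number of contigs.

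CPM was computed from column totals, and ratios on CPM + 1. Species were compared with edgeR 4.0.16 in R 4.3.3 (filterByExpr, TMM, glmQLFit, glmQLFTest, 2 libraries against 2, two-sided, Benjamini-Hochberg over all contigs tested). DESeq2 1.42.0, other scalings, filters and left-out libraries were alternatives. Each standard error is the log2 fold change over the root of its F statistic. Exact intervals of ratios are at 95%, cover counting error only and make no allowance for the choice of contigs by their ratios.

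Named were the 2 members with the largest and the 2 with the smallest citronella ratio, the 2 most abundant, the largest and smallest lemongrass ratio, and the largest and smallest called fold change. Members and lists were chosen with earlier results of these data known.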

Additional observations from a re-analysis of the deposited data

How the results depend on the processing

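The number of contigs chosen by the rule depended on its settings. It was 214 with a pseudocount of 0.1 CPM, 27 with 10 CPM, 55 with a minimum mean count of 100, 491 with no minimum and, added after seeing the data, 13 at a ratio of 3. It was 140 with TMM-scaled CPM, and 118 to 153 with the mean of 1 lemongrass library (66 to 52 towards citronella library 1 without lemongrass library 1). Of these, 98 of the 214, 24 of the 27, 40 of the 55, 183 of the 491 and 13 of the 13 were higher in citronella library 2. The balance of directions thus turned at 0.1 CPM, with no minimum and without lemongrass library 1. The 4 members over 2-fold apart in lemongrass became 10 at 0.1 CPM and 0 at 10 CPM or with a minimum mean count of 100. The 24 over 1.5-fold apart became 1 at 10 CPM and 9 with that minimum. The 65 of 75 higher in lemongrass library 1 became 37 of 40 with that minimum and 145 of 183 with no minimum. They became 42 of 52 with the species condition set on lemongrass library 2 alone, and 77 of 86 with it set on library 1 alone. This count and all of its settings were chosen after seeing the data.

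Called members numbered 82 by edgeR, against 54.8% of all contigs, and 34 with DESeq2, against 39.8%. The libraries of the species share only a replicate number, and the correlation across contigs of library 1 minus library 2 between the species was -0.10. With the replicate block 87 members were called, against 51.7% of all contigs. With the pairing crossed, added after seeing the data, 100 were, against 58.0%. The log2 fold change changed sign with a citronella library left out for 5 named contigs, and the cause was not tested. With each library left out it ran from -0.84 to 0.68 for g.contigcf11447, -0.83 to 0.77 for g.contigcf11475, -0.61 to 1.97 for g.contigcf2221, -0.53 to 1.53 for g.contigcf117 and -0.073 to 0.998 for g.contigcf15317. Of the 6 named contigs called, 5 lost the call with DESeq2, 1 (g.contigcf117) with upper-quartile scaling, 1 (g.contigcf2221) with the replicate block and 2 without citronella library 2, where the log2 fold change was 0.054 for g.contigcf21905 and 0.66 for g.contigcf17665.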

Other observations

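The same rule turned to lemongrass, with a mean lemongrass count of 50 or more and a ratio of lemongrass library 1 over library 2 above 2 or below 0.5, gave 5 of 12662 contigs. This was 0.0395%, against 0.946% for the citronella rule. The lists shared 0 contigs, which is 0% of each, and 80 of the 141 members met the lemongrass count condition. With only 5 contigs on the lemongrass list, an overlap of 0 says little about the members.

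Some members had consecutive ID numbers. The sources used here do not say what the order of the numbers stands for. Of the 141 members, 6 (4.26%) had a member as a neighbour in number, against 143 of the 14756 steady contigs (0.969%). They formed 3 pairs, named here after their values were seen. g.contigcf767 and g.contigcf768 had log2 ratios of -1.32 and -1.37 between the citronella libraries and of 0.48 and 0.46 between the lemongrass libraries. The CPM of the first over the second was 2.41 and 2.33 in citronella, and 2.10 and 2.08 in lemongrass. g.contigcf8209 and g.contigcf8210 were both higher in citronella library 2, with log2 ratios of -1.64 and -1.12. Their CPM ratio, first over second, was 0.58 and 0.85 in citronella, and 0.73 and 0.69 in lemongrass. g.contigcf11376 and g.contigcf11377 lay on opposite sides, at 1.30 and -1.23. Their CPM ratio was 1.17 and 0.17 in citronella, and 1.45 and 3.30 in lemongrass.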
